A study of Mus musculus with 8 samples.

Results

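The genes of the netrin family examined in AML12 hepatocytes after irisin treatment were the receptors Dcc, Neo1, Unc5a, Unc5b, Unc5c, Unc5d and Dscam and the netrins Ntn1 and Ntn4, which are 9 of the 21612 genes named on the array. All probes whose transcript accession belongs to these genes were taken, 13 of 39429. The family was chosen because a Dcc probe had a large rise with irisin. That change is therefore given as a description with no p-value, and its call in the fit over all probes is not read as evidence. Since every other change comes from the same comparison, the counts of the family are descriptions as well.

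Netrins are secreted, laminin-related proteins first known for guiding growing axons. DCC and its relative neogenin (Neo1) are cell-surface receptors of the immunoglobulin superfamily that mostly mediate attraction to netrin, and the UNC5 receptors (Unc5a to Unc5d) mediate repulsion. DCC and the UNC5 proteins are also called dependence receptors, because they can trigger cell death when no netrin is bound. Dscam is a further netrin receptor known from neurons. Outside the nervous system neogenin binds the repulsive guidance molecules, among them hemojuvelin, which acts in iron sensing in hepatocytes.

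AML12 is a hepatocyte line established from the liver of a mouse carrying a human TGF-α transgene, and all samples come from this line. The irisin group was cultured for 24 h with 0.5 µg/ml irisin, the peptide cleaved from Fndc5, and the control group for the same time in the same medium without it. Each group had 4 samples, each on a one-color Agilent array. The labels number the samples but do not say whether they were separate cultures, so the spread between them may be technical. All control arrays shared 1 slide and 1 scan, and all irisin arrays shared a different slide and scan, so treatment cannot be told apart from slide or scan. In bulk RNA a change in the share of cells with a transcript and a change in the amount per cell cannot be told apart either.

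The hepatocyte label was checked with 10 marker genes, among them albumin (Alb), transthyretin (Ttr) and Hnf4a, and all 10 were well above background on 8 of 8 arrays. The bile duct cell (cholangiocyte) markers Krt19, Krt7, Sox9 and Spp1 were so as well, and Epcam was on 2 arrays. The check therefore does not tell hepatocytes from bile duct cells. Signals are given as processed signal in linear scanner units, or after scaling as log2 units above or below the 75th percentile of all probes on that array. On this scaled log2 measure the summed level of the 10 markers ranged from 8.89 to 9.04 in control cells and from 8.59 to 8.85 after irisin. The brightest genes weigh most in this sum, which does not show the direction of each gene. The log2 changes of the 10 lay between -0.47 (Krt18) and 0.11 (Alb), with a median of -0.096. At the thresholds given below limma called none of the 10, of which 2 had an unadjusted p under 0.05, both lower, and the methods' test called none. Of all 24093 tested probes, 713 higher and 5197 lower had even an adjusted limma p under 0.05, whatever the size of the change. In control cells the 75th percentile was at 472 ± 70.1 scanner units (SD, n = 4), and after irisin at 783 ± 71.6 (SD, n = 4). Differences are given after scaling unless stated.

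Well above background, as called by the scanner software, were 5 of the 13 probes on all 8 arrays and the other 8 on none. Over the whole array these shares were 57.9% and 32.1%. The 5 probes belong to 5 genes, Dcc, Neo1, Unc5b, Ntn1 and Ntn4. For Unc5a, Unc5c, Unc5d and Dscam no probe was well above background, which sets an upper bound on their signal and does not show that the transcripts were absent. The signals of the 8 dim probes lay between 0.845 and 5.49, where the lowest signal that counted as well above background was between 4.21 and 4.73 depending on the array. No fold change is given for them, since both groups were below background.

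**Figure D1:**
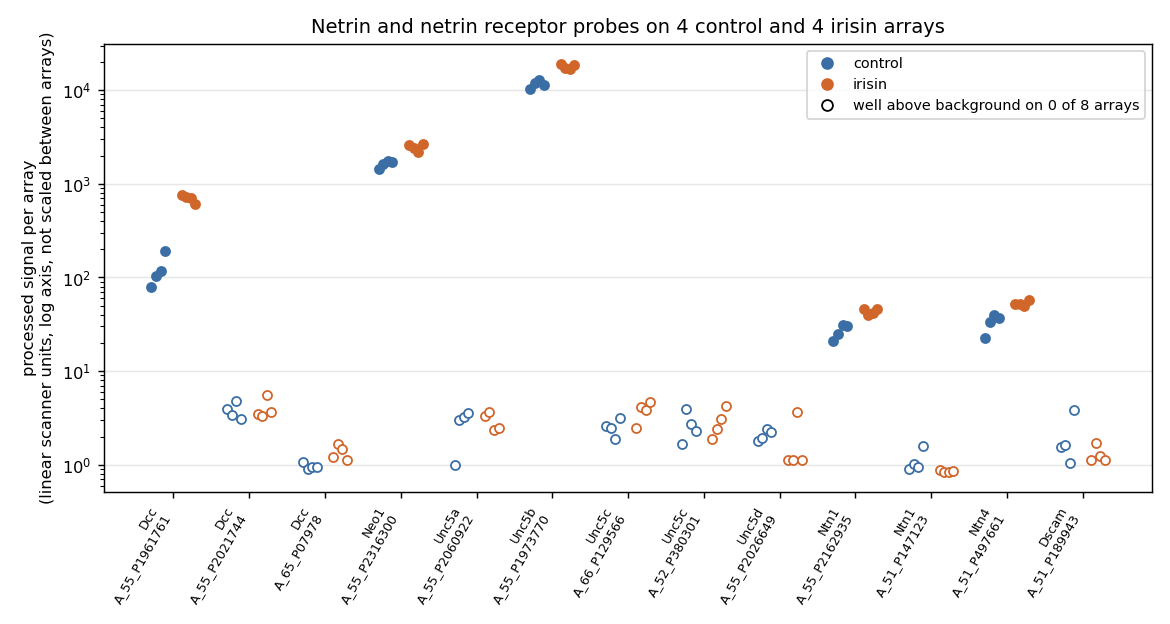
Processed signal of each of the 13 netrin and netrin receptor probes on each array, in linear scanner units on a log axis and not scaled between arrays; blue points are the 4 control arrays, orange points the 4 irisin arrays, and open points belong to probes well above background on 0 of 8 arrays. The Dcc probe A_55_P1961761 spans 79.3 to 191 without irisin and 607 to 768 with it, while the highest value of the other Dcc probes is 5.49.

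Among the receptors, the Dcc probe A_55_P1961761 gave signals of 79.3, 103, 119 and 191 on control arrays 1 to 4 and of 768, 717, 704 and 607 on irisin arrays 1 to 4, in linear scanner units before scaling. All 4 irisin values were above all 4 control values, and the highest control value was on array 4. After scaling, the log2 values were -2.23, -2.23, -2.17 and -1.38 on the control arrays and -0.05, 0.07, -0.19 and -0.49 on the irisin arrays. The control mean was -2.0 ± 0.414 (SD, n = 4) and the irisin mean -0.16 ± 0.240 (SD, n = 4), a log2 difference of 1.84 (standard error 0.195), or 3.58-fold. Before scaling the ratio of the mean signals was 5.69. Among all tested probes only A_55_P2096127 (2.31) and A_55_P1960479 (1.99), which have no gene name here, had a larger rise in log2, and the next was a probe of Ermn (1.77). In the signal class of Dcc, the fifth of 10 by mean signal, the log2 changes of tested genes lay between -0.42 (5th percentile) and 0.35 (95th percentile), and 1.19% were called higher.

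The spot of this Dcc probe was not marked as an outlier or saturated on any array, its local background was between 20 and 25, and the software's error model gave an error of 10.0% to 10.1% of the signal. Of the 6 nearest spots on the array, which hold probes of other transcripts, 1 had mean signals of 1.96 and 1.33, too dim for a ratio, and the other 5 had unscaled irisin to control ratios between 1.10 and 2.36.

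The other Dcc probes did not share this signal. A_55_P2021744 ranged from 3.1 to 4.83 scanner units without irisin and from 3.35 to 5.49 with it, and A_65_P07978 from 0.906 to 1.07 without and from 1.12 to 1.65 with it. On no array was either of them well above background. All 3 probes are assigned to the same Dcc transcript, and the place of each in that transcript was not analysed here. Of 5825 genes with at least 2 probes, 716 (12.3%) had a probe well above background on all 8 arrays beside another on none. Dcc and Ntn1 belong to these, and Unc5c, the third member with more than 1 probe, does not. Of 138 probes with a gene name that passed the thresholds as higher, 83 had another probe for their gene. For 10 of these 83 another probe was also called higher, for 68 another probe was tested and none was called higher, and for 5, Dcc among them, no other probe was tested.

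Neo1, the neogenin receptor, had unscaled signals of 1426, 1621, 1734 and 1731 in control cells and of 2577, 2425, 2189 and 2650 after irisin. After scaling the values were 1.94, 1.74, 1.70 and 1.80 in control cells and 1.69, 1.83, 1.44 and 1.64 in irisin-treated cells, so that the groups overlapped. The log2 difference was -0.14 (standard error 0.100, 95% confidence interval from -0.36 to 0.08).

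Unc5b, the UNC5 receptor best known from blood vessels, was the only UNC5 receptor above background. Its unscaled signals were 10289, 11946, 12995 and 11297 in control cells and 18879, 17285, 16665 and 18454 after irisin. After scaling the values were 4.79, 4.62, 4.60 and 4.51 in control cells and 4.57, 4.66, 4.37 and 4.44 in irisin-treated cells, again with overlap. The log2 difference was -0.12 (standard error 0.0961, 95% confidence interval from -0.33 to 0.09).

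The remaining receptors were dim in both groups. The Unc5a probe lay between 0.997 and 3.69, the Unc5c probes between 1.68 and 4.66, the Unc5d probe between 1.12 and 3.61 and the Dscam probe between 1.04 and 3.85 over the 8 arrays, in linear scanner units. None of these spots was called well above background on any array.

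Both netrins had a probe well above background. Ntn1, the prototypic netrin, had unscaled signals between 20.9 and 31.2 in control cells and between 39.5 and 46.0 after irisin. It had scaled values of -4.15, -4.29, -4.10 and -4.04 in control cells and of -4.12, -4.11, -4.28 and -4.21 in irisin-treated cells. Its log2 difference was -0.037 (standard error 0.0862, 95% confidence interval from -0.23 to 0.15). The other Ntn1 probe, A_51_P147123, stayed between 0.845 and 1.58 scanner units and was not well above background. Ntn4, a netrin found in basement membranes, had unscaled signals between 22.4 and 39.5 in control cells and between 49.1 and 57.1 after irisin. It had scaled values of -4.06, -3.85, -3.76 and -3.74 in control cells and of -3.95, -3.72, -4.03 and -3.90 in irisin-treated cells. Its log2 difference was -0.049 (standard error 0.102, 95% confidence interval from -0.27 to 0.18). The scaled values of the groups overlapped for both netrins.

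**Figure D2:**
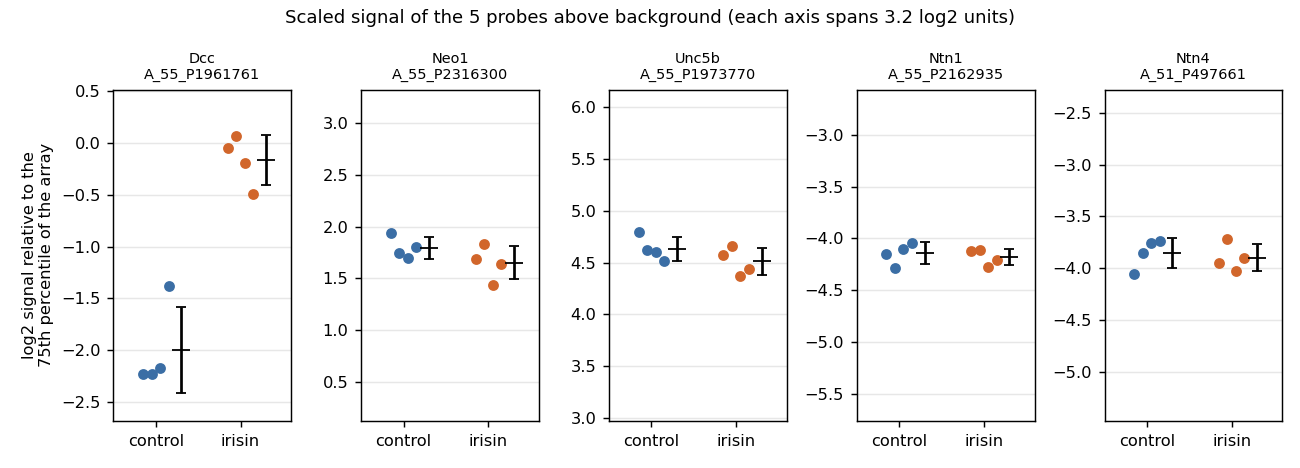
Scaled log2 signal (75th percentile of the array at 0) of the 5 probes well above background, on 4 control arrays (blue) and 4 irisin arrays (orange); black bars give the mean and SD of each group (n = 4), and every vertical axis spans 3.2 log2 units. The groups are apart for Dcc, with means of -2.0 and -0.16, and overlap for Neo1, Unc5b, Ntn1 and Ntn4.

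Of the 5 tested probes, limma called 1, the Dcc probe, with thresholds of 1.5-fold and a Benjamini-Hochberg adjusted p of 0.05. Among all 24093 tested probes 12.4% were called, 0.714% as higher and 11.7% as lower with irisin. The groups did not overlap for 1 of the 5 probes, again Dcc, and for 27.2% of all tested probes. Since the family was picked on this Dcc change, nothing is read from these counts. The median log2 change was -0.05 over the 5 probes and -0.08 over all tested probes. The 95% confidence intervals of the other 4 members all lie within 1.5-fold in either direction at this scaling.

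The scaling between arrays and the background correction moved these 4 small differences. The Neo1 difference was -0.14 with quantile normalization, -0.11 with cyclic loess, 0.43 with scaling to spike-in controls and 0.60 with no scaling. Unc5b was at 0.01, 0.02, 0.46 and 0.62 in the same order, Ntn1 at 0.17, 0.21, 0.54 and 0.70, and Ntn4 at 0.12, 0.16, 0.53 and 0.69, so that no direction can be given for any of them. The median of all tested probes was itself at 0.50 with spike-in scaling and at 0.66 without scaling. The 4 genes lay between 0.43 and 0.54 and between 0.60 and 0.70, on both sides of these medians. With no scaling limma called all 4 higher, as it did 14920 of the 24093 tested probes. The Dcc difference was 1.84 with quantile normalization, 1.85 with cyclic loess, 2.42 with spike-in scaling and 2.58 unscaled. With normexp background correction it was 1.36, and with normexp fitted on all spots, which called 0 of the 24093 probes, it was 1.39. Neo1 was at -0.09 with normexp and at -0.25 with normexp fitted on all spots. In the same order Unc5b was at 0.05 and -0.18, Ntn1 at -0.28 and 0.47, and Ntn4 at -0.24 and 0.45. With normexp 3 of the 5 probes had an unadjusted limma p under 0.05, and 1, Dcc, was called.

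**Figure D3:**
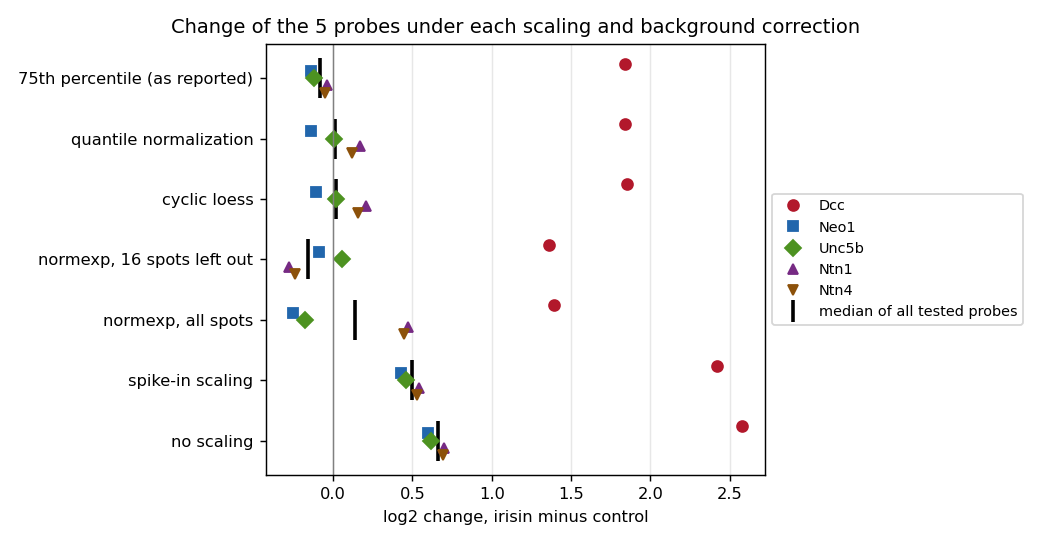
Log2 change (irisin minus control) of the 5 probes under 7 ways of background correction and scaling, one per row; each symbol is a gene and the black tick is the median of all tested probes in that row. Dcc stays between 1.36 and 2.58, while Neo1, Unc5b, Ntn1 and Ntn4 lie on both sides of 0 and move with the median of all probes when the arrays are scaled to spike-in controls or not at all.

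The variation within the groups was examined for the 5 probes. The control values of Dcc spanned 0.85 on the log2 scale, with array 4 apart from the rest, while those of the other 4 probes spanned between 0.24 and 0.32. The irisin values spanned 0.56 for Dcc and between 0.17 and 0.39 for the others. Without control array 4 the Dcc difference was 2.05, and over all single arrays left out it lay between 1.76 and 2.05. Over the 8 arrays the Pearson correlation of Dcc with the other members was -0.44 for Neo1, -0.50 for Unc5b, -0.01 for Ntn1 and -0.04 for Ntn4, given as a description because the arrays form 2 groups on 2 slides and share their scaling.

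The genes whose pattern over the 8 arrays was most like that of the Dcc probe, among probes well above background on all arrays, were Map4k2 (r = 0.990), Hlcs (r = 0.982), Myc (r = 0.982), Pfkfb2 (r = 0.981) and Cebpg (r = 0.976). Map4k2 encodes a protein kinase, Hlcs the enzyme that attaches biotin to carboxylases, Myc and Cebpg transcription factors, and Pfkfb2 an enzyme that sets the level of fructose 2,6-bisphosphate. Their log2 differences between irisin and control were smaller than that of Dcc, at 0.32, 0.68, 0.63, 0.55 and 0.23 in that order. Hlcs and Myc were called higher, while Map4k2, Pfkfb2 and Cebpg did not reach 1.5-fold and were not called. As the genes were picked for likeness to Dcc over these arrays, control array 4 lay above the mean of the other control arrays in all 5. For Pfkfb2 this was -1.74 against -2.11, and for Myc 2.65 against 2.43.

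Because Dcc is known mainly from neurons, 10 neuronal marker genes were examined beside it. For 6 of the 10 a probe was tested, and their log2 differences lay on both sides of 0. They were -0.45 for Snap25, -0.46 for Syp, -0.17 for Elavl4, 0.046 for Syt1, 0.23 for Rbfox3 and 0.28 for Map2. Limma called none of the 6, while Snap25 and Syp, which act at synaptic vesicles, were the 2 with an unadjusted p under 0.05, and the methods' test also called none. Among all 24093 tested probes, 5197 were lower and 713 higher with even an adjusted limma p under 0.05, so these 2 genes are not singled out. The summed scaled log2 level of the 6 ranged from 1.31 to 1.48 in control cells and from 1.06 to 1.17 after irisin, a sum that does not show the direction of each gene. Snap25, Syp, Elavl4, Syt1 and Map2 were well above background on 8 of 8 arrays, Rbfox3 was on 7, Tubb3 was on 3 of 8, and Stmn2, Elavl3 and Nefl were on none. Elavl4, Map2 and Rbfox3 each also had a probe that was well above background on no array. The part of neuronal cells or transcripts in the Dcc signal was not tested.

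The other genes of the netrin system followed. The list of further ligands, co-receptors and intracellular partners holds 56 genes, of which 55 had a probe and 45 were tested, with the probe of highest mean signal standing for its gene. Limma called 3 of the 45, all lower with irisin, against 10.7% of all 14312 tested genes, of which 10.2% were lower and 0.531% higher. Their median log2 change was -0.066, and that of all tested genes -0.064.

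Among the 13 tested ligands and co-receptors, 2 were called lower. Adora2b, an adenosine receptor that was proposed to take part in netrin responses, fell from -5.78 ± 0.0969 to -6.84 ± 0.108 (scaled log2 signal, SD, n = 4 in each group), a log2 change of -1.06 (standard error 0.0883). Its other probe was well above background on 3 arrays and was not tested, with means of -6.8 in control and -7.1 in irisin-treated cells. Lrrc4b, of the family of netrin-G ligands, fell from -5.94 ± 0.148 to -6.81 ± 0.227, a log2 change of -0.87 (standard error 0.124). A second Lrrc4b probe changed by -0.51 and was not called. Rgma, a repulsive guidance molecule that binds neogenin, changed by -0.54 and did not reach 1.5-fold. Hjv, which encodes hemojuvelin, was not well above background on any array. The integrin chains proposed as netrin receptors, Itga3, Itga6, Itgb1 and Itgb4, were above background on all arrays and none was called.

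Among the 32 tested intracellular partners, 1 was called. Trim9, a ubiquitin ligase that binds DCC, fell from -5.78 ± 0.309 to -6.69 ± 0.460, a log2 change of -0.91 (standard error 0.222), and neither of its other probes was well above background on any array. The kinase Ptk2, the adaptors Nck1 and Nck2, the GTPases Rac1 and Cdc42 and the exchange factor Dock1, which act below DCC in the growth cone, were all tested and none was called. The same held for Appl1, Dapk1, Maged1 and Casp9, which take part in the death signal of DCC or the UNC5 receptors. A dim probe of the exchange factor Trio fell by 0.81 and was called lower, while both brighter Trio probes changed by 0.22 and 0.15 and were not called. In the same way a dim probe of Flrt2, an UNC5 ligand, fell by 0.66 and was called lower. The brighter Flrt2 probe, which stood for the gene, changed by -0.021 and was not called.

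Adora2b, Lrrc4b and Trim9 were all in the dimmest of 10 signal classes, in which 48.2% of the tested genes were called lower. Of the 3, limma called only Adora2b (-0.59) with normexp background correction and none with quantile normalization, spike-in scaling, cyclic loess or unscaled signals. With normexp fitted on all spots, where no probe of the array was called, their differences turned to 0.44, 0.47 and 0.46. The methods' test called 2 of the 3 and not Trim9.

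The other axon guidance families were counted in the same way for comparison. Of 63 listed genes of the SLIT and ROBO, semaphorin and plexin, and ephrin and Eph families, 46 were tested and limma called 6, with 1 higher and 5 lower, beside the 10.7% called of all tested genes. Their median log2 change was -0.115, and that of all tested genes -0.064. Epha4, an Eph receptor, rose from 0.47 ± 0.201 to 1.10 ± 0.274 (n = 4 in each group), a log2 change of 0.63 (standard error 0.147). Epha4 was also called with quantile normalization, cyclic loess and normexp background correction. It was called with spike-in scaling and unscaled signals too, settings in which 7804 and 14920 of the 24093 tested probes were called higher. It was not called with normexp fitted on all spots (0.52), where no probe of the array was called. The call was also lost without control replicate 3 (0.54) or without irisin replicate 3 (0.50). The 5 lower genes were the ligand Slit2 (-0.97), the ephrin Efna3 (-0.80), the Eph receptors Epha10 (-0.76) and Ephb2 (-0.70) and the plexin Plxna1 (-0.59). The share of tested genes called lower was 48.2% in the signal class of Slit2 and 32.9% in that of Epha10. It was 13.9% in the class of Efna3 and Ephb2 and 3.49% in that of Plxna1. With no scaling Ephb2 and Plxna1 turned to 0.036 and 0.15, and with normexp fitted on all spots the 5 lay between -0.14 (Plxna1) and 0.49 (Slit2). None of the 5 was called with spike-in scaling, cyclic loess or unscaled signals, and Plxna1 lost its call without control replicate 3 (-0.54), irisin replicate 1 (-0.58) or irisin replicate 2 (-0.58). With normexp background correction only Ephb2 (-0.63) of the 5 was called, and with quantile normalization Efna3 (-0.61) and Ephb2 (-0.61) were. Dimmer probes of Srgap2 (-0.85), Efnb2 (-0.59) and Ephb6 (-0.83) were also called lower, while the brighter probes that stood for these genes changed by -0.11, 0.46 and -0.27 and were not called. Epha1 had a larger change than Epha4 (0.78) but a wide spread between the irisin arrays (SD 0.815, n = 4) and was not called.

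**Figure D4:**
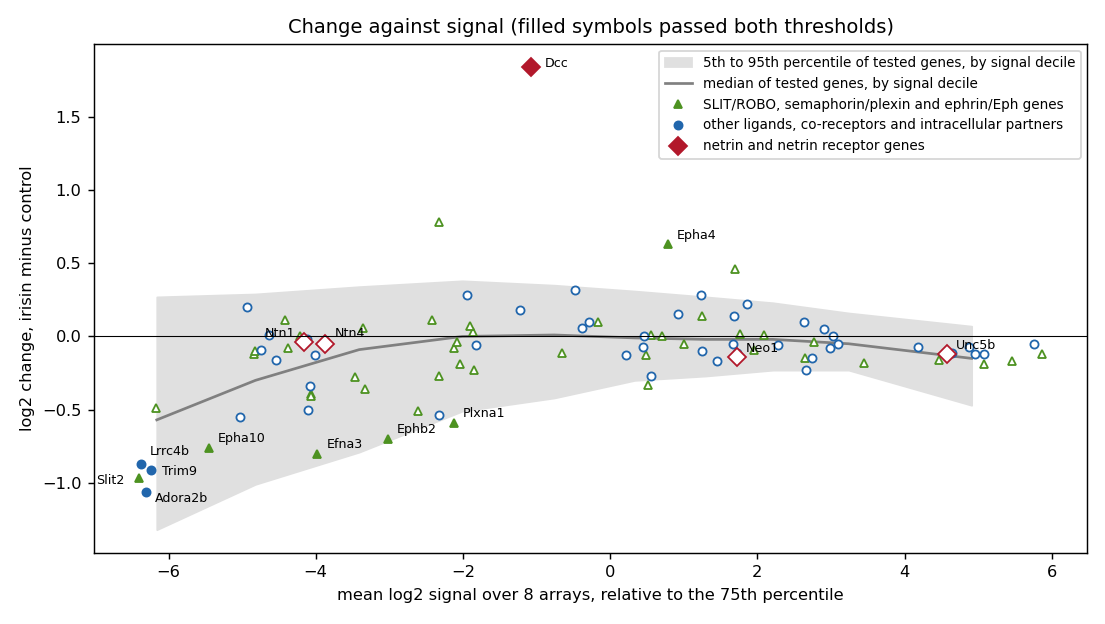
Log2 change (irisin minus control) against mean log2 signal over the 8 arrays, both after scaling, for the tested netrin and netrin receptor genes (red), the other netrin pathway genes (blue) and the other guidance genes (green); filled symbols passed both thresholds, the grey line and band are the median and the 5th to 95th percentile of all tested genes in 10 signal classes. Dcc lies at 1.84, above the band, while Adora2b, Lrrc4b, Trim9 and Slit2, at the left, lie between the 5th and 95th percentile of the dimmest class (-1.32 and 0.27).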

How the data were processed

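The arrays, Cy3-labeled and one-color, were scanned by the authors and processed with Agilent Feature Extraction 12.0.3.1, per the file headers. The deposited signal intensity is linear, background-subtracted and detrended within the array, and not normalized between arrays. The deposited value table differs from it by at most 0.000500%. The methods give thresholds of 1.5-fold and an adjusted p of 0.05 and name no scaling between arrays.

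Spots marked as outliers were left out, spots of a probe averaged, and the log2 75th percentile of each array subtracted from its log2 signals. Accessions were matched to gene symbols in RefSeq's GRCm38.p6 table (72.7% matched). The headers name mm9, so no coordinates are given. Limma 3.58.1 in R 4.3.3 was run on 24093 probes well above background on all 4 arrays of a group. The number of arrays limits the precision. On simulated arrays of the irisin against control comparison with 24093 probes, 91.5% of 200 changes of 1.5 (log2) were recovered. Among the unchanged probes 4 were called. The simulated arrays held no slide effect, and changes near the 1.5-fold threshold were not simulated. Python 3.11.15 was used for tables and plots.

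The members, lists and alternatives were chosen with earlier results of these data known. Lists were written from general knowledge. Named genes are all members, called list genes and the 5 genes most like Dcc by Pearson r over 8 arrays. Others were named after their values were seen. Besides hepatocytes and neurons, markers of cholangiocytes (4 of 5 tested, 0 called by limma, 0 with an unadjusted p under 0.05 and 0 called by the methods' test), stellate cells (1 of 7, 0, 0 and 0), endothelial cells (2 of 5, 1, 2 and 1) and macrophages (2 of 5, 0, 1 and 0) were counted. Alternatives were normexp, quantile normalization, cyclic loess, spike-in scaling, no scaling, the value table, other filters, marked spots kept, the replicate number as a block, robust eBayes with a trend, single arrays left out, the methods' test and the adjusted p alone. Same-numbered samples did not clearly deviate together (r between -0.35 and 0.17), so the main fit did not pair samples by number. These correlations cannot show whether the samples were set up in pairs. Normexp was run on the median spot signal, since the files hold no mean. It could not be fitted well on irisin arrays 2 and 4 with all spots, so 16 spots with a local background over 100 were left out, a choice made after seeing the data; this is the normexp value in the text unless stated.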

Additional observations from a re-analysis of the deposited data

Results flagged for a closer look

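The Dcc probe was the only one of the 5 members above background with an array far from the other 3 of its group. Control replicate 4 was at -1.38 (log2 relative to the 75th percentile), against -2.23 to -2.17 on the other control arrays. A total of 10 groups of 4 arrays were checked, and chance alone marks about 1 in 20 groups. Without this array the log2 difference of Dcc was 2.05.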

How the results depend on the processing

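For values that moved with a setting the cause was not tested unless one is named. Since Dcc's change chose the family, its calls under other settings are a description and do not support it. Over all 24093 tested probes limma called 14920 higher with no scaling, 7804 with spike-in scaling and 172 in the main fit. It called 12750 of 39429 lower with no filter on dim probes, and 5197 of 24093 with the adjusted p alone. Quantile normalization gave 670 higher and 1021 lower, cyclic loess 699 and 926, and normexp 52 and 1465. These totals count probes, while the counts of the pathway and guidance genes use 1 probe per gene. With no filter on dim probes 5 of 13 member probes were called, as 4 probes below background in both groups were added as lower. With no scaling 5 of 5 were called higher, and with normexp fitted on all spots, which called 0 of all 24093 probes, 0 were (2 with an unadjusted p under 0.05). The called other netrin pathway genes went from 3, all lower, to 8 with the adjusted p alone, 2 higher and 6 lower. They were 11 with no filter on dim probes, all lower. The counts were 34 with no scaling and 12 with spike-in scaling, and in both settings all were higher. Normexp gave 1, and normexp fitted on all spots 0 (6 with an unadjusted p under 0.05). Quantile normalization and cyclic loess gave 0 (11 each with an unadjusted p under 0.05). The called other guidance genes went from 6, of which 5 were lower, to 12 with the adjusted p alone, 2 higher and 10 lower. They were 17 with no filter on dim probes, 1 higher and 16 lower. The counts were 27 with no scaling and 10 with spike-in scaling, and in both settings all were higher. Normexp gave 2, and normexp fitted on all spots 0 (7 with an unadjusted p under 0.05). Quantile normalization gave 3 and cyclic loess 1. With single arrays left out the counts were 1 for the members, 3 to 4 for the pathway and 4 to 7 for the other guidance genes. With the replicate number as a block the counts were 1, 3 and 6, as without it. The methods' test called 1, 2 and 6, Trim9 being lost. The median normexp signal with all spots was 376 and 475 on irisin arrays 2 and 4, against 69.0 to 82.5 on the other arrays. Signals near background limit what can be said of the dim probes.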
